A study of Mus musculus with 6 samples.

Results

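The 8 genes followed here through 6 mouse heart samples belong to signals of sprouting blood vessels: Cxcr4, Cxcl12, Ackr3, Apln, Aplnr, Adm, Calcrl and Esm1. They were taken by name from a fixed list, each through the probe sets annotated to that symbol alone. All 8 genes were on the array, with 1 probe set each, out of 19938 named genes. Each sample was run on 1 Affymetrix Mouse Gene 1.0 ST array, which reads a whole transcript, from 300 ng of total RNA of 6-month-old hearts (postnatal day 180).

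The series asked how the adult heart responds when its vessels lose Id1 and Id3. Id1 and Id3 are helix-loop-helix proteins that hold E proteins off DNA, and Tie2Cre is a recombinase transgene active in endothelial and blood cells. The groups were 1 wild-type heart (WT), 2 Id control hearts, 1 conditional knockout heart (Id cKO), 1 knockout heart treated with mouse recombinant IGFBP3 and 1 knockout heart left untreated as its control. Id control 1 is labelled Id1F/+Id3-/-, a floxed and a wild-type Id1 allele with no working Id3 and no Cre named, and Id control 2 is labelled Tie2Cre+Id1-/-Id3+/-. Id cKO is labelled Tie2Cre+Id1F/-Id3-/-, so that Id3 was missing from all its cells and 1 of its Id1 alleles was null everywhere. The last 2 hearts, called the incubated pair in the design text, are labelled only as conditional knockouts. The sources used here do not state the strain background, the number of animals behind a sample or how long the pair was treated. Every group but Id control was 1 array, so a p-value here reflects how far these particular samples vary, and that variation may be purely technical.

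CXCR4 is the receptor of the chemokine CXCL12, and ACKR3 takes up the same chemokine without G protein signalling. Apelin, the product of Apln, acts on the receptor APLNR. Adrenomedullin, the product of Adm, widens vessels and acts on the receptor CALCRL, which needs a small partner protein of the RAMP family to bind it. Cells at the tip of a growing vessel make much CXCR4, apelin and ESM1, a secreted proteoglycan also called endocan, while cells behind them carry APLNR. Low oxygen and VEGF raise several of these genes.

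The arrays fell into 2 sets on different scales. The medians of the deposited log2 values lay between 5.73 and 5.83 on the first 4 arrays (WT, both Id controls, Id cKO) and were 4.45 and 4.51 on the incubated pair, 1.29 lower on average. Levels below are therefore quantile normalized over the 6 arrays, which gives each array the same distribution, unless called deposited. Id3 was then between 4.24 and 5.03 on the 3 knockout arrays and 4.58 in Id control 1, against 6.81 in WT and 6.90 in Id control 2. Id1 was between 6.07 and 6.51 in the knockouts and 6.00 in Id control 2, against 7.68 and 7.79 in Id control 1 and WT. Both follow the labels, though the position of the probe sets relative to the deleted exons is unstated. Xist, an RNA made from the silenced X chromosome, ranged from 7.71 to 8.23 in Id cKO and both Id controls and from 3.59 to 3.92 in WT and the incubated pair, so that 3 hearts had a female and 3 a male pattern. All 8 markers of heart muscle cells and all 10 of endothelium averaged at least 6 on the log2 scale, and all 8 matched lymphocyte markers averaged less.

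The 250 bases before the transcription start are shown for the genes that were high in knockout hearts (Cxcr4, Adm and Esm1) and, for contrast, for Apln. They come from RefSeq on build GRCm38.p6, in which 7 of the 8 genes matched (Cxcr4, Cxcl12, Ackr3, Apln, Adm, Calcrl and Esm1). The Cxcr4 window is chr1:128592300-128592549 on the minus strand, Adm chr7:110627407-110627656 on the plus strand, Esm1 chr13:113209409-113209658 on the plus strand and Apln chrX:48034854-48035103 on the minus strand. Capitals mark ACGTG or GCGTG on either strand, the core that hypoxia-inducible factors bind.
Cxcr4: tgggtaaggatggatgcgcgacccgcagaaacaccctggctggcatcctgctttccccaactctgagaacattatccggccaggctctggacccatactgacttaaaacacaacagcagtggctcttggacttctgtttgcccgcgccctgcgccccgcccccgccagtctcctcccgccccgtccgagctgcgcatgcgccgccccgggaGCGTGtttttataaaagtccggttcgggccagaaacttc
Adm: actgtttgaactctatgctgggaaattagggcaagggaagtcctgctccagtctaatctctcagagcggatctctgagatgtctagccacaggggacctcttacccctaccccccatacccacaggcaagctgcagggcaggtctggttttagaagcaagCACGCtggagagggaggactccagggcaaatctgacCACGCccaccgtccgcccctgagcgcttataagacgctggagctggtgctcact
Esm1: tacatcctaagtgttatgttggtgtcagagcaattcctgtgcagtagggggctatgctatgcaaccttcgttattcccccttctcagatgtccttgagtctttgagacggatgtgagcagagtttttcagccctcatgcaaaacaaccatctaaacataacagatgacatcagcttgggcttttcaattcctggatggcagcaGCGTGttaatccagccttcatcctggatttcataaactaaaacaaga
Apln: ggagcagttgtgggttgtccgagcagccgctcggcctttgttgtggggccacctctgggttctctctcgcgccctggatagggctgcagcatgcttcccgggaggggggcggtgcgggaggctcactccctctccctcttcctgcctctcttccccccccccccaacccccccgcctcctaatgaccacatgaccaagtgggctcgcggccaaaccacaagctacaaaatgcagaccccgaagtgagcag
Cxcr4 holds 1 such core, 35 to 39 bases before the start, next to a TATAAA at 25 to 30 bases. Adm holds 2, both on the other strand and therefore written CACGC, at 50 to 54 and 86 to 90 bases, and Esm1 holds 1 at 43 to 47 bases. Ackr3 holds 1 as well, and the Apln, Calcrl and Cxcl12 windows hold none. All of these matches are GCGTG. Of all 32851 promoter windows of this length 38.6% hold ACGTG or GCGTG, so 4 of 7 describes these genes and is no test. CANNTG, the E-box that E proteins bind, lies in 66.2% of all windows and in those of Apln and Esm1. A match is a string of letters, not a shown binding site.

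Across all 3 knockout hearts, the receptor gene Cxcr4, the hormone gene Adm and the endothelial gene Esm1 were higher than in the 3 other hearts, by 4.14-fold, 3.75-fold and 3.68-fold. Of the 3 knockout hearts 2 form an array set of their own. With that set as a block, Id cKO is the only knockout heart that enters the difference. The log2 difference then went from 1.91 to 1.32 for Adm and from 1.88 to 1.01 for Esm1, which was no longer called. The adrenomedullin receptor gene Calcrl was 1.66-fold higher and did not pass the test. Cxcl12, Ackr3, Apln and Aplnr had overlapping levels in knockout and other hearts. A gene entered a comparison if the larger of its group means reached 6 (log2), and 7 of the 8 genes did so in both groups. In limma over the 6 arrays, 2 of those 7, Cxcr4 and Adm, passed an adjusted p of 0.05, both higher, where 2.55% of the 10099 genes compared were called higher and 1.81% lower. On 3 of the 7 every knockout array lay above every other array, as it did for 14% of all genes compared, while 17.8% lay below. Esm1 also passed both criteria, but entered only through the knockout hearts, where it is high, and is left out of these counts.

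**Figure D1:**
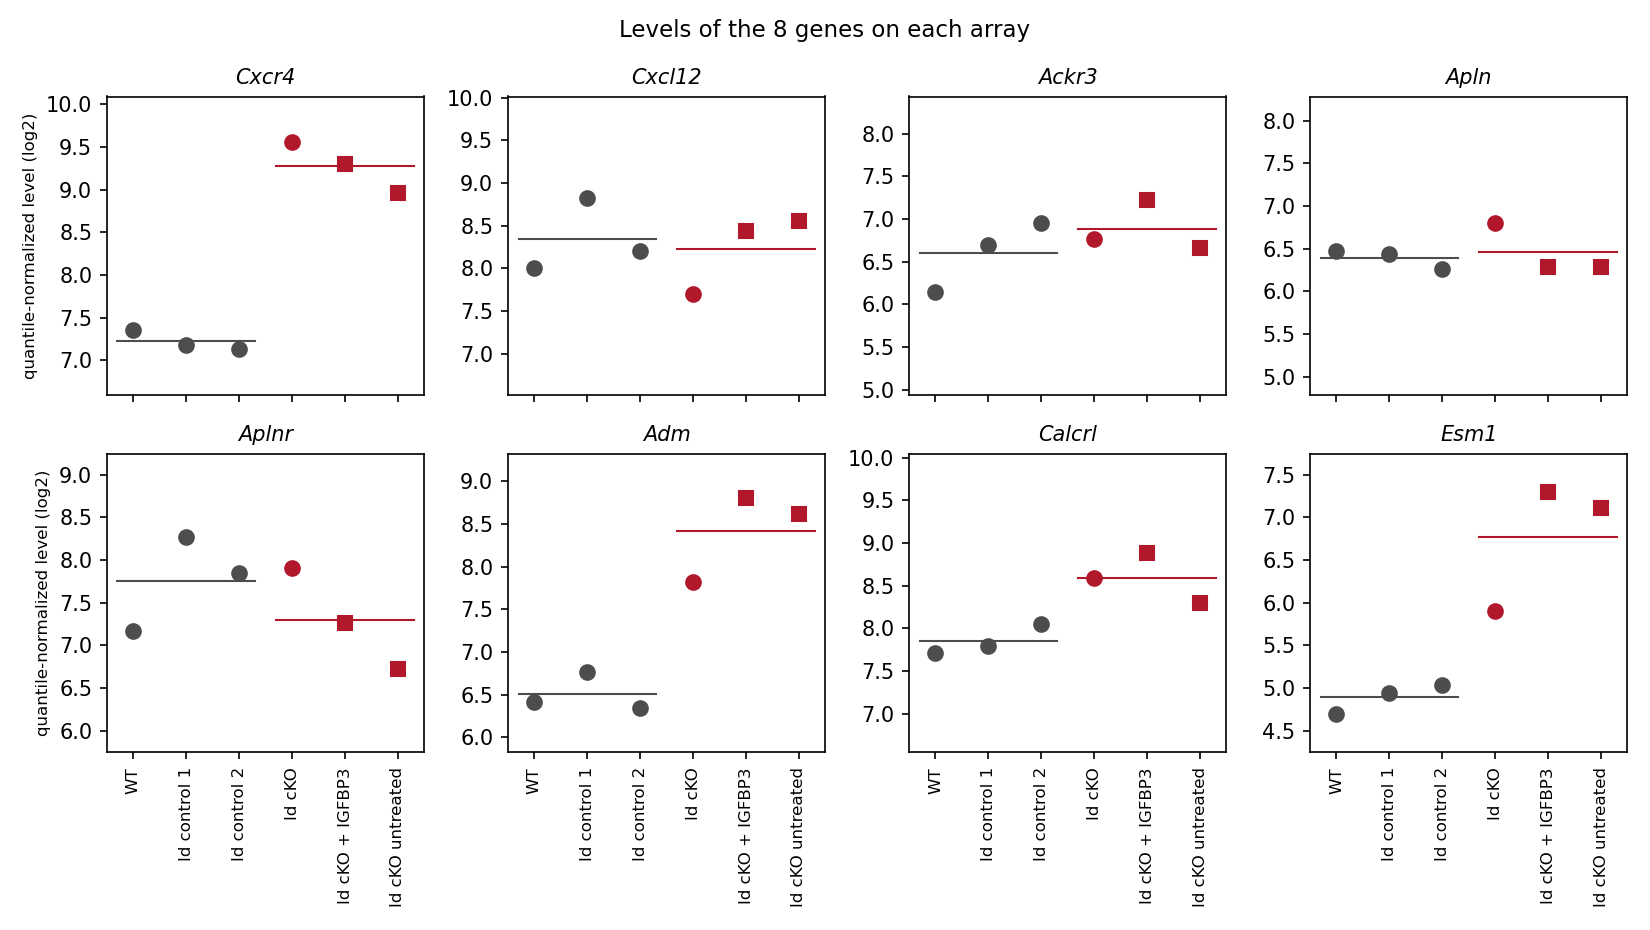
Quantile-normalized log2 level of each of the 8 genes (y axis, the same span in every panel) on each of the 6 arrays (x axis). Grey circles are WT and Id control, the red circle is Id cKO, red squares are the incubated pair and lines are the means of 3 arrays. The red points lie above all grey ones for Cxcr4, Adm, Calcrl and Esm1, and the 2 colours overlap for the other 4 genes.

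Cxcr4 was at 9.55 in Id cKO, 9.30 in the treated and 8.97 in the untreated knockout heart, against 7.36 in WT, 7.18 in Id control 1 and 7.13 in Id control 2. The groups lay far apart, with 1.61 between the lowest knockout and the highest other heart and 0.06 between the 2 Id controls. The mean was 9.27 ± 0.30 (SD, n = 3) in knockout and 7.22 ± 0.12 (SD, n = 3) in other hearts. The difference of 2.05 ± 0.18 (limma SE) had an adjusted p of 0.00308. Each knockout array was at least 2-fold above each other array, which held for 38 genes in all, or 0.376%. An exact permutation test of 3 against 3 arrays gives 0.1 at best in a two-sided test, and Cxcr4 reached it (exact p = 0.1). The order within the knockouts, with Id cKO above treated above untreated, rests on single arrays and has steps of 0.26 and 0.33. Both are larger than the gap between the Id controls. Those 2 hearts differ in genotype and date code, so here and below their gap is no measure of replicate spread.

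Genotype and array set are thus partly mixed. With the array set as a block Cxcr4 was 2.33 higher, and with the date code in the labels as a block it was 2.31 higher. Both incubated hearts are knockouts, so these values rest on Id cKO alone among the knockouts. The date code block sets it against WT and Id control 2 only. With the sex pattern as a block, a choice made after seeing the data, Cxcr4 was 2.08 higher (adjusted p = 0.00643 in limma). Cxcr4 passed in all 15 settings tried, the block fits and leaving out each array included, with adjusted p from 0.000209 to 0.0411 in limma. The levels as deposited gave the same order of groups, 8.12 and 8.49 on the lower-scaled incubated pair against 7.57 to 7.72 in WT and the Id controls.

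Cxcl12, the ligand of CXCR4, ran otherwise. It was at 7.70 in Id cKO, 8.44 in the treated and 8.55 in the untreated knockout heart, and at 8.00 in WT, 8.83 in Id control 1 and 8.20 in Id control 2. Id cKO had the lowest and Id control 1 the highest level, with the other hearts between. No step between neighbours in this order exceeded the gap of 0.63 between the 2 Id controls. The difference of all knockouts from the other hearts was -0.11 ± 0.28 (limma SE, adjusted p = 0.814). As deposited, Cxcl12 was 0.87 ± 0.29 (limma SE) below Id control in Id cKO (adjusted p = 0.345), below both Id control arrays, as were 41.9% of genes, by 0.56 and 1.18.

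Ackr3, which removes CXCL12, was at 6.77 in Id cKO, 7.22 in the treated and 6.66 in the untreated knockout heart. In WT it was at 6.15 and in the Id controls at 6.70 and 6.95. WT was the lowest, 0.52 under the next heart, while the gap between the Id controls was 0.26. The knockouts were 0.28 ± 0.24 (limma SE) from the other hearts (adjusted p = 0.461). As deposited, Ackr3 was 0.61 above WT in Id cKO, and in the Id controls 0.68 ± 0.18 (limma SE, adjusted p = 0.629) above it. Against Id control, Id cKO was at -0.07 ± 0.18 (limma SE, adjusted p = 0.901).

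Adm was at 7.82 in Id cKO, 8.80 in the treated and 8.61 in the untreated knockout heart, against 6.41 in WT, 6.76 in Id control 1 and 6.34 in Id control 2. The knockouts lay above all other hearts, and the incubated pair lay 0.79 and more above Id cKO. The means were 8.41 ± 0.52 (SD, n = 3) and 6.50 ± 0.23 (SD, n = 3), a difference of 1.91 ± 0.26 (limma SE, adjusted p = 0.0132). With the array set as a block, where Id cKO is the only knockout heart that counts, the difference was 1.32. With the sex pattern as a block it was 1.78 (adjusted p = 0.0223 in limma). The adjusted p was 0.0774 without WT, 0.0779 without the treated heart and 0.059 without the untreated heart, and stayed under 0.05 when any of the other 3 arrays was left out. Even as deposited, on the lower scale of the pair, Adm was at 8.01 and 7.79 there, against 6.75 to 7.17 in WT and the Id controls.

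Calcrl, the receptor gene for adrenomedullin, was at 8.58 in Id cKO, 8.88 in the treated and 8.29 in the untreated knockout heart, against 7.71 in WT, 7.79 in Id control 1 and 8.06 in Id control 2. The groups did not overlap, but the untreated heart was only 0.24 above Id control 2, less than the 0.26 between the Id controls. The difference was 0.73 ± 0.19 (limma SE, adjusted p = 0.0671). As deposited, where the pair is on its lower scale, the groups overlapped.

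The partner proteins of CALCRL differed among themselves. Ramp3 was at 7.70, 7.86 and 7.74 in Id cKO, treated and untreated hearts and at 6.63, 6.49 and 6.46 in WT and the 2 Id controls. It rose by 1.24 ± 0.14 (limma SE) with an adjusted p of 0.00665. Each knockout array was at least 2-fold above each other array, as for 0.376% of genes. Ramp2 was at 8.98, 9.35 and 10.35 in the knockouts, in the same order, and at 8.87, 8.59 and 8.94 in the others, a difference of 0.76 ± 0.32 (limma SE, adjusted p = 0.169). Ramp1 averaged under 6 in both groups, at 5.09 and 5.60, and was not tested there. Adm2, the gene of a related hormone, was likewise under the floor, at 5.54 and 5.36.

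Apln was at 6.80 in Id cKO, 6.29 in the treated and 6.29 in the untreated knockout heart, against 6.47 in WT, 6.43 in Id control 1 and 6.26 in Id control 2. Id cKO stood 0.33 above the next heart, more than the 0.17 between the Id controls, and no step between neighbours among the other 5 hearts exceeded that gap. The knockouts differed from the other hearts by 0.07 ± 0.18 (limma SE, adjusted p = 0.826). As deposited, Id cKO was 0.35 above WT and 0.46 ± 0.15 (limma SE, adjusted p = 0.343) above Id control.

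Aplnr, the apelin receptor gene, was at 7.91 in Id cKO, 7.26 in the treated and 6.72 in the untreated knockout heart, against 7.17 in WT, 8.27 in Id control 1 and 7.85 in Id control 2. The 3 highest hearts were the 3 with the female pattern and the 3 lowest those with the male one, with means of 8.01 and 7.05. Knockout minus other hearts was -0.46 ± 0.35 (limma SE, adjusted p = 0.405) in all. Within the female pattern it was -0.15 and within the male pattern -0.18. The part of sex in the Aplnr levels was not tested, and Id cKO and the incubated pair also differ in array set.

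Esm1 was low in every heart without the full knockout, at 4.70 in WT, 4.94 in Id control 1 and 5.04 in Id control 2. It was at 5.90 in Id cKO, 7.29 in the treated and 7.11 in the untreated knockout heart. The knockouts lay above the others by at least 0.87, and the incubated pair 1.21 and more above Id cKO. The difference was 1.88 ± 0.34 (limma SE, adjusted p = 0.0272). It was 1.01 with the array set as a block and 1.04 with the date code as a block. Both rest on Id cKO alone among the knockouts, and neither was called. The adjusted p lay between 0.0548 and 0.13 when WT, either Id control or either heart of the incubated pair was left out, and passed without Id cKO, where the difference was 2.31. As deposited, Esm1 was at 6.32, 6.51 and 6.29 in the knockouts and between 5.21 and 5.42 in the others, so the groups stayed apart on that scale too.

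Leaving out the Id cKO array, the incubated pair alone was set against WT and Id control. There array set and genotype cannot be told apart, and 15.1% of 10239 genes were called higher and 17.2% lower. The 2 arrays of the pair had 1586 identical deposited values, while no other array shared more than 32 with another. The spread within the pair may therefore be too small, which was not tested. Cxcr4 (1.91 ± 0.17), Adm (2.20 ± 0.18), Esm1 (2.31 ± 0.16) and Calcrl (0.74 ± 0.21) were called higher (limma SE, adjusted p of 0.000209, 0.000154, 0.000103 and 0.0266), with Esm1 again over the floor only in the knockouts. The call for Calcrl was lost without WT (adjusted p = 0.0905 in limma), Id control 1 (0.0769) or the treated heart (0.109). Aplnr was at -0.77 ± 0.30 (limma SE, adjusted p = 0.0831) and at -1.07 without WT (0.0256).

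**Figure D2:**
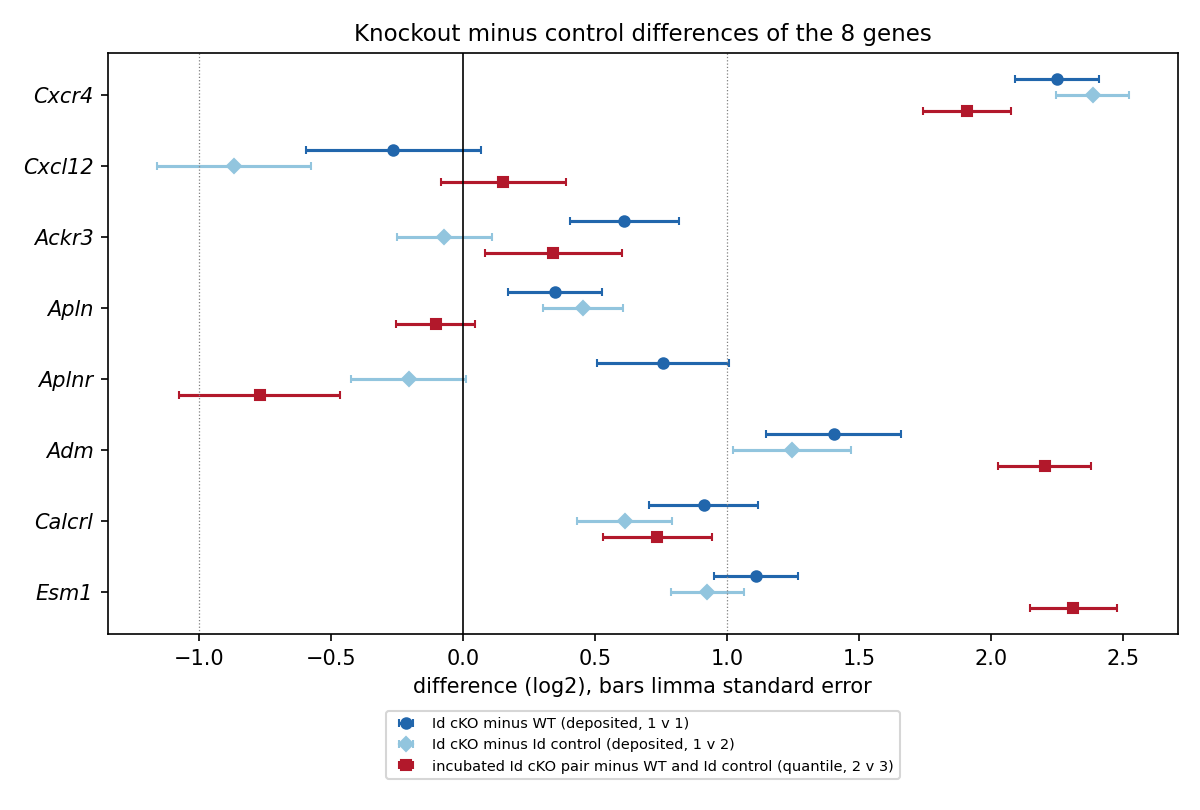
Log2 difference (x axis) for each of the 8 genes (y axis) in 3 comparisons that share control arrays, with limma standard errors as bars and dotted lines at 2-fold. Cxcr4 lies beyond 2-fold in each, at 2.25, 2.39 and 1.91, and Cxcl12, Ackr3, Apln and Aplnr each lie on both sides of 0.

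Id cKO alone gave no limma call among the 8 genes, against WT (0.0348% of 11478 genes called) or against Id control (0.0177% of 11310 called). These fits take their spread from the 2 Id control arrays and have 1 residual degree of freedom. Cxcr4 came nearest, with adjusted p of 0.0678 against WT and 0.0884 against Id control in limma, and passed against WT with each array centred on its median (0.0484). By size, Cxcr4, Adm and Esm1 were at least 2-fold above WT as deposited (2.25, 1.41 and 1.11), as were 2.2% of genes, Esm1 being over the floor only in Id cKO. Cxcr4 and Adm were at least 2-fold above both Id controls (2.39 and 1.25 on average), as were 0.698% of genes, and Esm1 was 0.90 and 0.95 above them. In the Id controls none of the 7 genes compared (all but Esm1, under the floor) was 2-fold from WT, where 0.202% of 11407 genes were so. Limma called 0 genes in that comparison, with 828 genes (7.26%) at an unadjusted p under 0.05. Aplnr came nearest, 0.76 and 1.17 above WT. Id cKO and both Id controls had the female Xist pattern and WT the male one. In both comparisons with WT, group and sex pattern therefore cannot be told apart.

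The comparison of treated with untreated knockout heart, 1 array each with no replicate check, asked whether IGFBP3 alters the knockout heart. None of the 7 genes compared was 2-fold apart, where 1.3% of 7474 genes were. The receptor genes Calcrl (0.63), Ackr3 (0.58) and Aplnr (0.55) were higher in the treated heart by over 0.5, as were 12.1% of genes. Of these, Ackr3 and Aplnr reached the floor only in the treated heart and were at 5.86 and 5.92 in the untreated heart as deposited. Cxcr4 was 0.38 higher, Adm 0.22, Esm1 0.21 and Cxcl12 at -0.06, and Apln, below the floor, was at 5.47 and 5.48 as deposited. Ramp2 and Mif moved the other way, at -0.97 and -0.75. Endothelial markers had a median of 0.23 in the same comparison.

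Markers of several cell types moved with genotype or array set. The mean level of 10 endothelial markers was between 8.95 and 9.27 on the knockout arrays and between 8.29 and 8.36 on the others, with a median difference of 0.72 and 4 of the 10 called higher (2.55% of all genes), against a median of -0.04 over all genes compared. Of 9 smooth muscle and pericyte markers compared, 6 were higher and 3 lower. Called higher (2.55% of all genes) were 3, the pericyte genes Cspg4 (1.10), Kcnj8 (0.96) and Pdgfrb (0.74). Abcc9 (-0.51), Acta2 (-0.34) and Myh11 (-0.28) were lower and not called. The heart muscle mean was between 13.01 and 13.19 on the first 4 arrays and 12.70 and 12.56 in the incubated pair. The blood and platelet mean was 5.76 in Id cKO, 7.74 and 7.37 in the pair and between 6.14 and 7.16 in the others. On a whole-heart sample more endothelial cells and more RNA per cell cannot be told apart. Lymphocytes and myeloid cells, which also carry CXCR4, were judged by their markers. The lymphocyte mean was between 4.43 and 4.84 in knockouts and between 4.60 and 4.69 in others, with all 8 genes under the floor. The mean of 9 myeloid markers was 6.00 in Id cKO, under the 6.07 to 6.21 of WT and the Id controls, and 6.79 and 6.98 in the incubated pair. The atrial mean was 9.85 in Id control 2 and between 6.46 and 6.97 elsewhere, with Cxcr4, Adm and Esm1 low in that heart. What part these cell types have in the differences was not tested.

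Every compared gene of a list known from endothelial tip cells was higher in the knockouts. So was every compared marker of endothelium (10), arteries (5) and veins (3) over all knockouts, so this direction was not particular to the tip-cell list. The tip-cell list was chosen with earlier results in view and is no independent evidence of that direction. Of 21 tip-cell genes compared over all knockouts, 21 were higher, with a median of 0.87. Of the 19 that reached the floor in both groups, 7 were called higher (2.55% of all genes), and Plaur was called but reached it only in the knockouts. The largest difference was that of Igfbp3 (3.45), which codes for the growth factor binding protein used as treatment. Trp53i11 was at 10.35, 9.51 and 9.43 in Id cKO, treated and untreated hearts and between 7.05 and 7.67 in the others. Next came the urokinase receptor gene Plaur (1.73) and the protease gene Mmp14 (1.68). Kcne3 averaged under the floor, but was at 5.59, 5.68 and 5.22 in the knockouts and between 3.67 and 3.94 in the others.

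In Id cKO against Id control the 22 tip-cell genes compared were higher, with a median of 0.88 against -0.03 over all genes. Of the 19 over the floor in both groups, 8 were at least 2-fold above both controls (0.698% of genes), as was Kcne3, which reached the floor only in Id cKO. Igfbp3 (3.74) was the 1 gene of the list that limma called (adjusted p = 0.038). Trp53i11 (2.94), the potassium channel subunit gene Kcne3 (1.93), the netrin receptor gene Unc5b (1.70), the actin bundler gene Fscn1 (1.65) and Mmp14 (1.55) followed. The adhesion gene Mcam came next, and then the basement membrane genes Col4a1 (1.29) and Nid2 (1.22).

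Of 14 stalk and resting genes 9 lay above Id control in Id cKO and 5 below, with a median of 0.11 and none of the higher ones 2-fold above both. Angpt1, a ligand gene whose product calms vessels through the receptor TEK, was lowest at -1.72. It was at least 2-fold below both controls (0.424% of genes). Which cells made Angpt1 in these whole-heart samples was not tested. Over all knockouts 12 of 13 were higher, 2 of them called (2.55% of all genes), the nitric oxide synthase gene Nos3 (1.06) and Notch4 (1.06), and Angpt1, over the floor only in the other hearts, was called lower (-2.15, as were 1.81% of genes), with a list median of 0.64. In the incubated pair against WT and Id control the median was 0.92 for this list and 0.83 for the tip-cell list. The difference between the lists was not tested.

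Of 17 genes induced in low oxygen 13 lay above Id control in Id cKO and 4 below, none 2-fold from both controls, with a median of 0.52. Of the 16 over the floor in both groups 12 lay above, with a median of 0.47. Largest were Egln3 (1.18), Car9 (0.96, over the floor only in Id cKO), Vegfa (0.93) and Ankrd37 (0.84). Over all knockouts 12 of 17 were higher, and 10 of the 15 over the floor in both groups. Vegfa (0.94), the glucose transporter gene Slc2a1 (1.58) and Ndrg1 (1.31) were called higher (2.55% of all genes) and Vldlr (-0.88) lower (1.81%). The glycolysis and oxygen-sensing genes Hk2 (-0.28), Pdk1 (-0.22) and Egln1 (-0.68) were not called.

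Among partners of the 3 signalling systems, 20 were compared in Id cKO against Id control, 15 higher and 5 lower, with a median of 0.20. Of the 17 over the floor in both groups 14 were higher. Ramp3 (1.21) and the arrestin gene Arrb1 (1.23) were at least 2-fold above both controls, as were 0.698% of genes. The product of Arrb1 binds activated CXCR4 and other receptors. Mme, a membrane peptidase that cuts small peptide hormones, was lowest at -0.97, and Cd74, which with CXCR4 binds MIF, was at 0.90. Over all knockouts Ramp3 was called higher (2.55% of all genes) and Mme lower (1.81%) among 18 compared, Mme at -1.46 (adjusted p = 0.038 in limma) and over the floor only in the other hearts. Rgs16, a brake on G protein signalling, had the largest difference of the list there (1.59) and was not called. It was over the floor only in the knockouts, at 5.53 in the other hearts. Mme was at 5.99, 5.49 and 4.69 in Id cKO, treated and untreated hearts and at 6.64, 7.01 and 6.88 in WT and the Id controls. Every knockout array lay below every other array, as for 17.8% of genes compared. Dpp4, the peptidase that inactivates CXCL12, was between 5.10 and 5.17 in knockouts and between 5.68 and 5.73 in the others, under the floor of 6 on this scale.

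**Figure D3:**
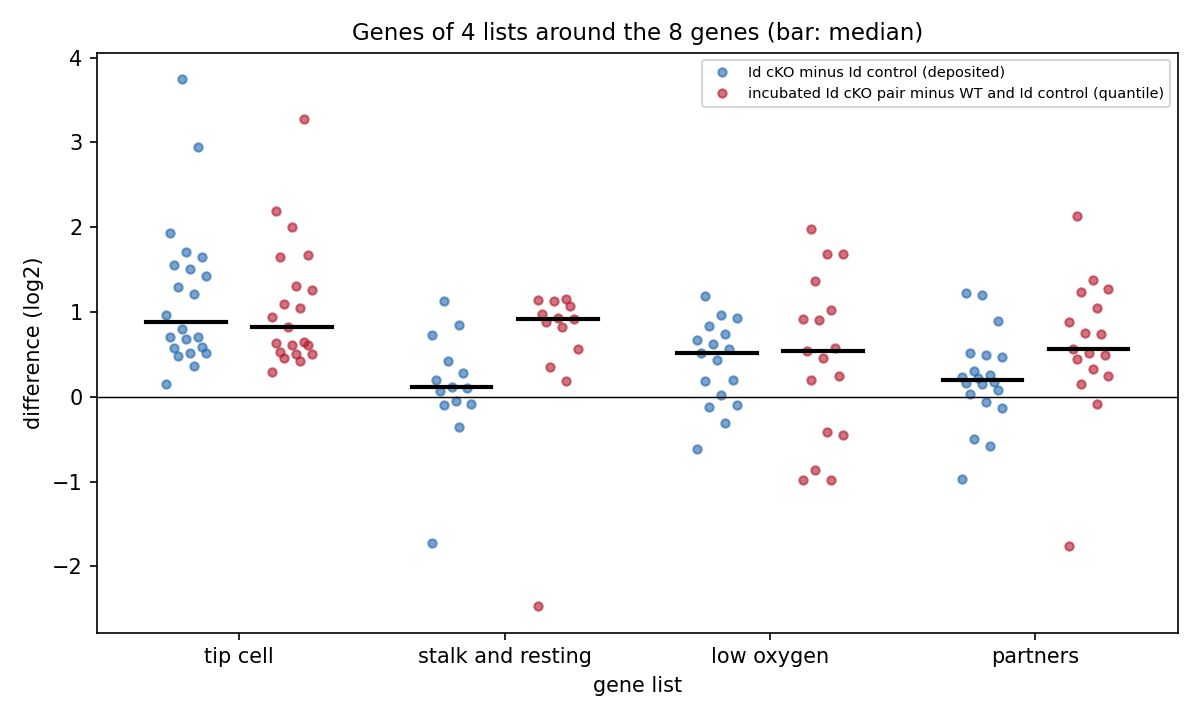
Log2 difference (y axis) of each gene compared in 4 lists (x axis), in Id cKO minus Id control (blue, deposited) and the incubated pair minus WT and Id control (red, quantile normalized), with medians as black bars. Every tip-cell point lies above 0, and Angpt1 is the lowest point of the stalk and resting list in both. The red median is 0.92 for the stalk and resting list and 0.83 for the tip-cell list.

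The pattern of each gene over the 6 arrays was also set beside those of the 2550 other genes that were compared and ranged over at least 1 log2 unit. With 6 arrays these Pearson correlations are descriptions, and arrays of a set share its processing. Most alike to Cxcr4 were Igfbp3 (0.99), AA467197 (0.99), Vegfa (0.99), Ramp3 (0.98) and Trp53i11 (0.98). Vegfa was between 10.50 and 10.59 in the knockouts and between 9.58 and 9.60 in the others. Adm was most like Tspan17, Adam9, Akap12, Rell1 and B3gnt3 (each 0.99 to 1.00), and Esm1 most like Vwa1, Gm4924, Plaur, Tpm3 and Sema4c (each 1.00). These lists follow the step from Id cKO up to the incubated pair, which for Plaur went from 6.12 to 7.55 and 7.43.

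The genes that did not separate the groups had other companions. Cxcl12 was most like Per3 (0.98) and Hlf (0.95), both output genes of the circadian clock, then Rtn4rl1, Wee1 and Lrrc3b. Per3 was at 5.59 in Id cKO and 6.83 in Id control 1, the lowest and highest hearts for Cxcl12 too. The sources used here do not state the time of day of sampling, and its part was not tested. Aplnr was most like Bche (0.98), Kdm6a (0.97), Eif2s3x (0.96), Frem2 and Psmd14. Kdm6a and Eif2s3x lie on the X chromosome and escape its inactivation. Kdm6a was between 6.81 and 7.16 in the hearts with the female pattern and between 5.41 and 6.09 in the others. Ackr3 was most like Lum (0.98), a matrix proteoglycan of fibroblasts, then Tnfsf10, Nsg1, Ddx3x and Gatm. Calcrl was most like Anxa4, Niban1, Id2 (0.98), Tlr4 and Gnb4.

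**Figure D4:**
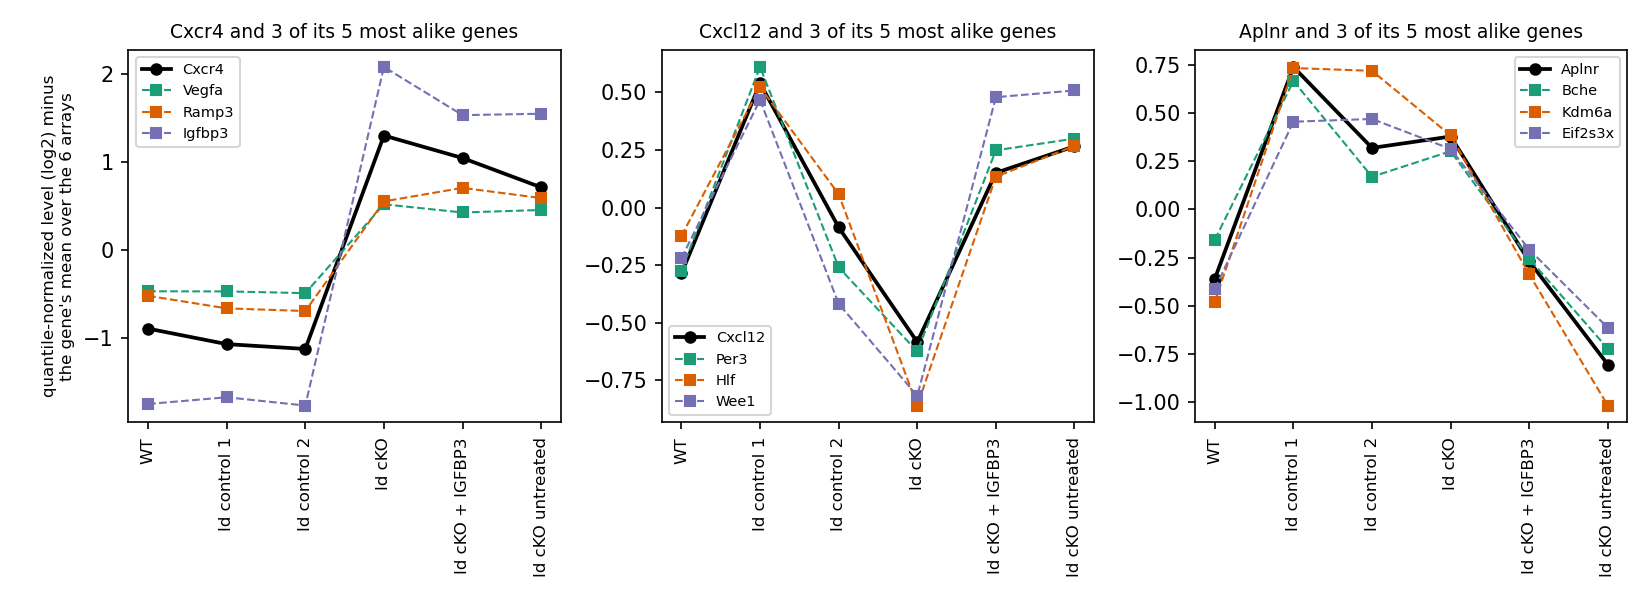
Quantile-normalized log2 level minus the mean of each gene over the 6 arrays (y axis) by array (x axis), for Cxcr4, Cxcl12 and Aplnr (black) and 3 of the 5 genes most alike to each (coloured). Cxcr4 steps up in the 3 knockout hearts, Cxcl12 peaks in Id control 1 and dips in Id cKO, and Aplnr is high in Id cKO and both Id control hearts.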

How the data were processed

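Log2 expression levels were deposited for 35557 probe sets on 6 arrays, made by the authors with Affymetrix Expression Console and RMA, per the submitters' processing notes (versions not given in the sources used here). RMA corrects background, equalises arrays and summarises probes; the incubated pair was on a lower scale, so differences within a set used deposited values and those across sets used quantile normalization. Platform annotation gave 21789 probe sets 1 symbol, and where a gene had several the brightest on average stood for it. Genes with a higher group mean of at least 6 were compared in limma (version 3.58.1, R 4.3.3), with Benjamini-Hochberg adjustment over all of them, limit 0.05, and the code was tested on simulated data. Within sets, limma used 5 groups over 6 arrays, so lone arrays were assumed to vary like the Id control pair. Across sets it used 2 groups. The number of arrays limits the precision. The 8 genes and all lists were chosen with earlier results of these data known. Genes were named by rule: the 8 genes, Id1, Id3 and Igfbp3; list members 2-fold apart or called, or else the 4 with the largest difference, in Id cKO minus Id control; and the 5 genes most alike in pattern. Genes named from the knockout comparison over all 3 hearts, from the treated heart, and Dpp4 and Mif were chosen after their values were seen. Of 174 list genes, 8 did not match a symbol.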

Additional observations from a re-analysis of the deposited data

Results flagged for a closer look

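Cxcl12 and Apln differed in opposite directions between knockout and other hearts in the 2 sex patterns. This was not tested, and array set goes with sex pattern among the knockouts. Cxcl12 in Id cKO was 0.81 below the mean of the 2 Id controls (0.50 and 1.12 below the single arrays), while in the incubated pair it was 0.44 and 0.55 above WT. The effect in the female pattern minus that in the male pattern was -1.30. Apln in Id cKO was 0.37 and 0.54 above the Id controls, and in the incubated pair 0.19 below WT on each array, and the same difference of effects was 0.64.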

How the results depend on the processing

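Over the 15 settings tried for all 3 knockout hearts, Cxcr4 stayed past the limit in 15, Adm in 12, and Esm1 in 7 of its 14. Those settings include the array set and the date code as blocks, which rest on Id cKO alone among the knockouts. No paired analysis was possible, because every group but Id control was 1 array and the 2 Id controls differ in genotype. Over all settings the difference for all knockouts lay between 1.91 and 2.33 for Cxcr4, 1.32 and 2.20 for Adm, 1.01 and 2.31 for Esm1 and 0.06 and 0.46 for Ackr3, and in the pair between 0.44 and 1.03 for Calcrl. Over all knockouts 10 calls of single genes were lost and 5 directions reversed: Cxcl12 was at 0.13 without Id control 1 and 0.15 without Id cKO (leave-one-out range -0.28 to 0.15), Apln at -0.10 without Id cKO (range -0.10 to 0.15), and Aplnr at 0.15 with the array set and 0.40 with the date code as a block. In the incubated pair Cxcl12 was at -0.018 without WT (range -0.018 to 0.39). The cause was not tested.

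Counts over all genes moved more. A floor of 8, which leaves fewer genes, turned the 364 genes 2-fold apart from WT in Id cKO into 223, the 23 of Id control into 12, the 127 of Id cKO against Id control into 73, the 97 of the treated heart into 39, the 495 of all knockouts into 260 and the 951 of the pair into 538. No floor gave 178 for the treated heart. Requiring an unadjusted limma p under 0.001 as well gave 74, 13 and 58 in the first 3. Limma calls for Id cKO against WT went from 4 to 14 with a floor of 8 and 14 with median centring, and for Id control from 0 to 1 with no floor and 1 with median centring. For all knockouts the 495 became 230 with the array set and 250 with the date code as a block, and the 441 calls became 59, 59 and, with the sex pattern, 200. Calls for the pair went from 3302 to 5656 with no floor and 1708 with a floor of 8. Leaving out 1 Id control array gave 57 to 203 genes apart for Id control against WT and 286 to 300 for Id cKO against Id control. There a gene had to be 2-fold from 1 Id control array only, a looser rule than both, so these counts could only rise. For all knockouts, leaving out 1 array gave 352 to 951 genes apart. Calls then ran from 24 (without the treated heart) to 3302 (without Id cKO) for all knockouts, and from 2032 to 3618 for the pair. All 3 knockout arrays lay above the others for 4 of the 8 genes after quantile, median or loess normalization and for 3 as deposited. Each count includes Esm1, which was over the floor only in the knockouts. After quantile normalization 14% of all genes compared lay above and 17.8% below. Cxcl12 lay below as deposited, where the incubated pair is on its lower scale. Esm1 in the other hearts and Apln lie near or under the floor, which limits both.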
